A study of Mus musculus with 45 samples.

Results

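The genes described here are 10 genes of excitotoxic death in primary mouse hippocampal neurons, namely the Trpm channels Trpm2, Trpm4 and Trpm7, the calpains Capn1 and Capn2 with their inhibitor Cast, the kinase Dapk1, the nitric oxide synthase Nos1, the poly(ADP-ribose) polymerase Parp1 and Aifm1. They were chosen by their symbols, and all 10 were found among the 54532 genes of the count table. RNA was sequenced from neurons of newborn C57BL/6N mice in 9 conditions, with 5 libraries per condition. Each condition had 1 library for each of the numbers 1, 3, 6, 7 and 8 in the sample titles, which were taken as culture preparations. The control was untreated. Bicuculline (Bic, 50 µM), a GABA type A receptor antagonist that induces AP firing, was given for 0.5, 1 or 2 h. In the SP (short) protocol, neurons had 0.5 h of Bic and then another 0.5 h in which AP firing was stopped with 1 µM tetrodotoxin (TTX), alone or together with 30 µM of the NMDA receptor agonist NMDA (TTX/NMDA). In the LP (long) protocol, 1 h of Bic was followed by 1 h of TTX or of TTX/NMDA at the same doses, or of TBOA (50 µM), an inhibitor of glutamate transporters that lets glutamate spill over. All cultures had been given cytosine arabinoside, which limits the growth of dividing glia, and every value below is from whole cultures.

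Excitotoxicity is the death of neurons from too much glutamate, with Ca2+ entering through NMDA receptors as the first step. Ca2+ activates calpains, which are proteases held in check by calpastatin (Cast), and neuronal nitric oxide synthase (Nos1), which the scaffold PSD-95 tethers to NMDA receptors. Nitric oxide and other oxidants damage DNA. Parp1 answers with poly(ADP-ribose), which can release apoptosis-inducing factor (Aifm1) from mitochondria, a form of death called parthanatos. Trpm2 is a Ca2+-permeable channel opened by ADP-ribose, Trpm4 is a Ca2+-activated channel for monovalent cations, Trpm7 is a channel fused to a kinase, and Dapk1 is a death-associated kinase that binds NMDA receptors.

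Library totals ran from 11316580 to 81129276 counts (median 26239614), so that the 10 genes had between 28 counts (Cast, its lowest library) and 10606 counts (Parp1, its highest). Of 4 activity genes, Fos, Npas4 and Arc were higher at all times of Bic and Bdnf from 1 h on (0.031 on the log2 scale, adjusted p = 0.97, at 0.5 h), with Fos at 36.4 CPM in the control and at 1539 CPM after 2 h. CPM are a gene's counts relative to library size, with TMM factors over the 45 libraries. Neuronal markers were abundant in all libraries (Map2 at 1583 CPM and Snap25 at 1068 CPM on average). Astrocyte markers were present as well (Gfap at 279 CPM), microglial markers were low (Csf1r at 2.91 CPM and P2ry12 at 0.133 CPM, with P2ry12 at 0 in 6 libraries), and the endothelial marker Cldn5 was at 0 in 27 libraries. Within a condition, no pair of libraries correlated below 0.986 across expressed genes.

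All 10 genes code for proteins. On GRCm38, the channel genes lie at chr10:77907722-77970563 (Trpm2), chr7:45302632-45333780 (Trpm4) and chr2:126791565-126876230 (Trpm7). Capn1 is at chr19:5988545-6015897, Capn2 at chr1:182467260-182517608 and Cast at chr13:74692368-74808810. Dapk1 is at chr13:60601947-60763191, Nos1 at chr5:117781032-117958840, Parp1 at chr1:180568924-180601254 and Aifm1 at chrX:48474944-48513563. Counts are sums over the exons of each gene. Dapk1, Nos1 and Parp1 are on the plus strand, and the other 7 genes are on the minus strand.

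Levels are set side by side between genes per kilobase of merged exons, which is an approximate scale. On this scale, Parp1 was the most abundant of the 10 genes in the control, with 22.3 ± 1.77 CPM per kb (mean ± SD, n = 5, as for all levels below). Capn2 followed with 11.9 ± 0.57, Dapk1 with 10.2 ± 1.23, Nos1 with 7.87 ± 1.90 and Aifm1 with 7.27 ± 0.75 CPM per kb. Trpm7 was at 3.29 ± 0.43, Capn1 at 3.05 ± 0.39 and Trpm2 at 2.39 ± 0.28 CPM per kb. The lowest were Trpm4 with 0.721 ± 0.15 and Cast with 0.276 ± 0.073 CPM per kb. In this order, Nos1 and Aifm1 did not differ beyond their spread, nor did Trpm7 and Capn1. The calpain of the milli type, Capn2, thus stood 3.93 ± 0.54 times above Capn1, the micro type, and the calpastatin mRNA was at 1.85% ± 0.46 of the 2 calpain mRNAs together. The files count genes and not isoforms, and Cast has exons that overlap Erap1 on the other strand over 834 bp, which strand-specific counting keeps apart. Merged exons come to 11470 bp for Cast, 3344 bp for Capn1 and 6345 bp for Capn2. A single transcript can be shorter than this, so the level of Cast per kb and its share of the calpain mRNAs depend on the choice of length.

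**Figure D1:**
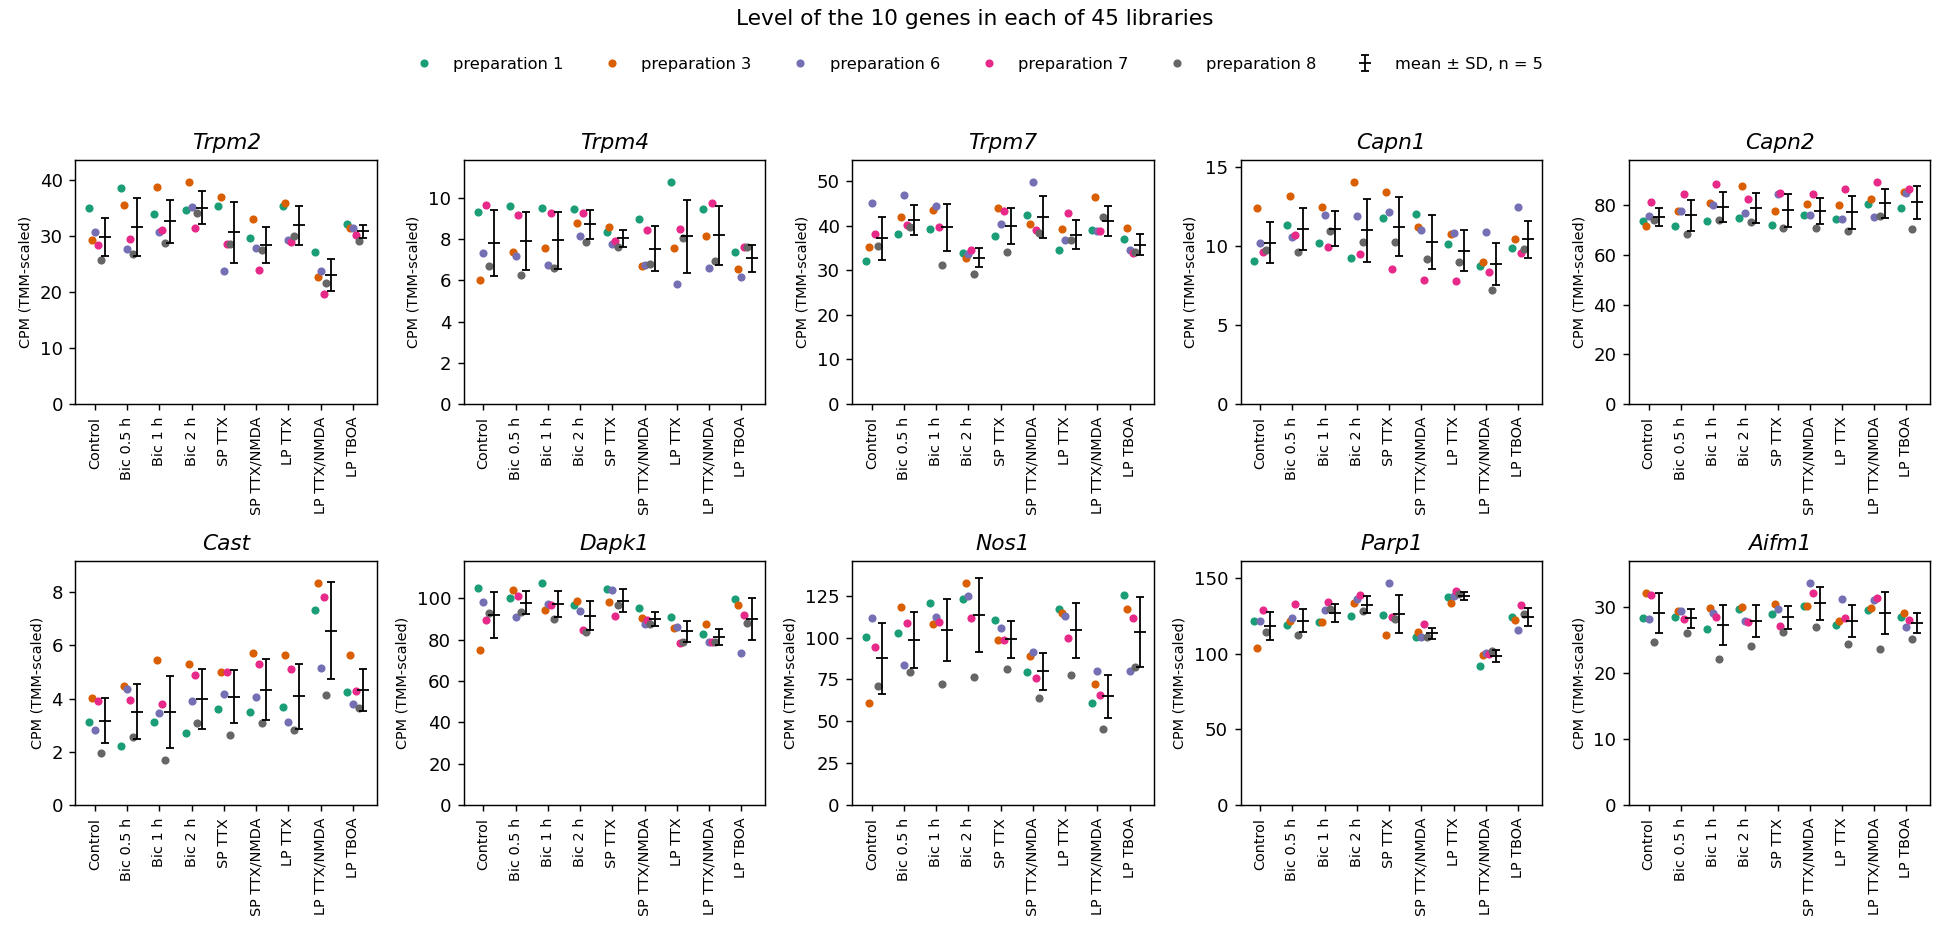
Level of each of the 10 genes (y axis, TMM-scaled CPM, from 0) in the 9 conditions (x axis), with 1 coloured point per library and culture preparation and the mean ± SD (n = 5) in black. Parp1, Nos1 and Trpm2 are lowest and Cast is highest in LP TTX/NMDA, while Capn2 and Aifm1 stay within 75.2 to 81.2 and 27.3 to 30.7 CPM on average.

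Across the 9 conditions, 5 of the 10 genes had a step in the order of their condition means that exceeded the larger SD of the neighbours, and each had 1 such step. For Parp1 (98.6 ± 4.05 CPM), Nos1 (64.9 ± 12.97 CPM) and Trpm2 (23 ± 2.80 CPM) the step set LP TTX/NMDA apart at the low end, with SP TTX/NMDA next at 113 ± 3.59, 80.03 ± 11.0 and 28.4 ± 3.29 CPM. For Cast it set LP TTX/NMDA apart at the high end, with 6.55 ± 1.82 CPM against 4.34 ± 1.14 CPM in SP TTX/NMDA. For Trpm7 it set 2 h of Bic apart at the low end, with 32.8 ± 2.09 CPM against 35.8 ± 2.43 CPM in LP TBOA. No neighbours in the order differed beyond their spread for Trpm4 (7.06 to 8.71 CPM), Capn1 (8.86 to 11.2 CPM), Capn2 (75.2 to 81.2 CPM), Dapk1 (81.3 to 98.9 CPM) and Aifm1 (27.3 to 30.7 CPM). The highest mean exceeded the lowest 2.07-fold for Cast, 1.75-fold for Nos1, 1.52-fold for Trpm2, 1.40-fold for Parp1 and 1.08-fold for Capn2.

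Adding NMDA to TTX after 1 h of Bic (the active effect of LP) lowered Nos1, Parp1 and Trpm2 and raised Cast, in a quasi-likelihood test of edgeR whose p-values were adjusted over all genes tested. Genes with an adjusted p under 0.05 are named as called. The other 6 genes, among them both calpains, Dapk1 and Aifm1, were not called. These 4 of 10 stand beside 23.5% of the 32852 genes tested in this comparison, and beside 46.8% of the 13592 genes with a mean of at least 1 CPM, a level that all 10 genes exceeded. The share of called genes was thus near that of expressed genes in general. The median log2 fold change was -0.021 over the 10 genes and -0.010 over the 13592.

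Parp1 was at 138, 134, 138, 141 and 139 CPM in preparations 1, 3, 6, 7 and 8 with LP TTX, and at 91.6, 99.1, 100.2, 100.1 and 102 CPM in the same order with LP TTX/NMDA. The groups did not overlap, and the lowest TTX library was well above the highest TTX/NMDA library. Parp1 fell by 28.96% (log2 fold change -0.49, SE 0.060, edgeR adjusted p = 1.9e-06), in 5 of 5 preparations. All 5 TTX/NMDA libraries also lay below the 5 control libraries (104 to 129 CPM), a difference that was not tested.

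Nos1 was at 117, 115, 113, 99.6 and 77.7 CPM with LP TTX and at 61.0, 72.3, 79.8, 65.9 and 45.4 CPM with LP TTX/NMDA. The groups overlapped by 1 library each, with preparation 8 the lowest in both, and every preparation fell. The decrease was by 38.3%, the steepest of the 10 genes (log2 fold change -0.70, SE 0.12, edgeR adjusted p = 1.4e-04). Npy and Sst, which mark interneurons known to express Nos1 strongly, did not fall with it: Sst rose (log2 fold change 0.50, adjusted p = 0.0028), and Npy was at 0.53 (adjusted p = 0.21). Npy was called as well with the preparation as a block (0.58, adjusted p = 1.95e-07).

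Trpm2 was at 35.4, 35.9, 29.3, 29 and 29.9 CPM with LP TTX and at 27.2, 22.7, 23.8, 19.7 and 21.6 CPM with LP TTX/NMDA. The groups did not overlap. Trpm2 fell by 28.2% (log2 fold change -0.48, SE 0.093, edgeR adjusted p = 5.2e-04), in 5 of 5 preparations.

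The sequences before the annotated starts of these 3 genes are shown because their mRNAs fell together. They are the 250 bases upstream of each RefSeq start (GRCm38.p6), 5′ to 3′ on the gene's strand. Capitals mark matches to the CRE half-site (TGACG, the core of the motif that CREB binds) and to the GC box (GGGCGG, the motif of Sp factors), on either strand.
Parp1, chr1:180568641-180568890, plus strand: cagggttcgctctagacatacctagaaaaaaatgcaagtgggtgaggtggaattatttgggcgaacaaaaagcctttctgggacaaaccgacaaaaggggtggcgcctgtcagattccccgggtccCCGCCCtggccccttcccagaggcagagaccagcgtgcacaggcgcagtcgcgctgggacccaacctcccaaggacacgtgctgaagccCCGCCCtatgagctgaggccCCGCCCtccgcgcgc
Nos1, chr5:117866589-117866838, plus strand: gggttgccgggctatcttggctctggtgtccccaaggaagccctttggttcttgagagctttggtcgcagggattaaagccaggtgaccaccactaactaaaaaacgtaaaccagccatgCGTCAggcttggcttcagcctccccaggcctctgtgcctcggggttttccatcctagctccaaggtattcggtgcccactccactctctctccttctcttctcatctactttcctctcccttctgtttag
Trpm2, chr10:77969873-77970122, minus strand: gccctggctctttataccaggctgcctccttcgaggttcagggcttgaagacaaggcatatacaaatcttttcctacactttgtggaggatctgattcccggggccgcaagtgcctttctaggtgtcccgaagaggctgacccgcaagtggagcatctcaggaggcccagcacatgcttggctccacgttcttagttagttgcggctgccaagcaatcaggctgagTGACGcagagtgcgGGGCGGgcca
Parp1 had 3 GC boxes, at 124, 35 and 15 bases before the start, all on the other strand. Nos1 had 1 CRE half-site at 130 bases, and Trpm2 had 1 CRE half-site at 24 bases and 1 GC box at 10 bases. No motif was shared by all 3 windows. Of the 32851 windows of this length in the RefSeq table, 17.8% held a CRE half-site and 32.7% a GC box. The full CRE (TGACGTCA, which contains the half-site) was in 1.55% and the AP-1 motif (TGANTCA) in 6.75% of windows, and neither was in these 3. The windows of Nos1 and Trpm2 lie inside the genes as GENCODE draws them, which begin farther upstream, at 117781032 for Nos1 and at 77970563 on the minus strand for Trpm2. Of the 10 genes, 9 had an entry in the table, and Cast had 4 starts, of which the counts per gene cannot single out any. GC boxes were also found before starts of Dapk1, Capn1 and Cast, and a CRE half-site before a start of Cast. None of these genes was called lower in the active effect of LP.

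Cast was at 3.69, 5.66, 3.14, 5.10 and 2.84 CPM with LP TTX and at 7.32, 8.33, 5.15, 7.82 and 4.12 CPM with LP TTX/NMDA. The groups overlapped, with preparation 8 the lowest in both, and each preparation rose. The increase was by 55.7% (log2 fold change 0.64, SE 0.19, edgeR adjusted p = 0.015), with 70 to 422 counts per library, and it was not called without preparation 1 (0.56, adjusted p = 0.10). Per kilobase, calpastatin mRNA went from 2.34% ± 0.58 of the 2 calpain mRNAs with TTX to 3.69% ± 0.88 with TTX/NMDA.

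Markers of other cell types moved in the same comparison. Of 7 astrocyte markers, 6 rose (log2 fold change 0.80 to 0.90) and Slc1a2, the main glutamate transporter, fell (-0.36), and their summed level was 965 to 1448 CPM with TTX and 1093 to 1928 CPM with TTX/NMDA. Of 3 fibroblast markers, 2 rose (sum 97.1 to 227 and 131 to 362 CPM). Of 6 oligodendrocyte lineage markers, 3 rose (sum 39.8 to 58.1 and 36.04 to 87.4 CPM, with Sox10 at 0 in 5 of all libraries), and of 8 microglial markers, 3 rose (sum 7.69 to 10.4 and 10.1 to 15.4 CPM). Of 9 neuronal markers, 5 fell (sum 7711 to 8593 and 6695 to 7289.5 CPM), with Slc17a7 at -0.83 and Map2 at -0.59, whereas Gad1 and Gad2, markers of GABAergic neurons, were not called (0.21 and 0.10) and were higher with the preparation as a block (0.24 and 0.13). None of 3 endothelial markers was called. The part of these shifts in the rise of Cast and in the falls of Parp1, Nos1 and Trpm2 was not tested, and in whole cultures fewer cells of a type and less RNA per cell cannot be told apart.

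For the 6 genes that were not called, the log2 fold change was 0.057 for Capn2 (95% interval -0.10 to 0.21), -0.052 for Dapk1 (-0.19 to 0.082), 0.053 for Aifm1 (-0.13 to 0.24) and 0.10 for Trpm7 (-0.063 to 0.26). It was -0.15 for Capn1 (-0.39 to 0.086) and 0.0096 for Trpm4 (-0.27 to 0.29). In a paired fit with the culture preparation as a block, Trpm7 was called as well (0.13, adjusted p = 0.045), and 62.4% of 16399 genes were. Without TMM factors, every log2 difference of this comparison is higher by 0.17, which keeps the sign of the 4 called genes and turns those of Capn1 and Dapk1.

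**Figure D2:**
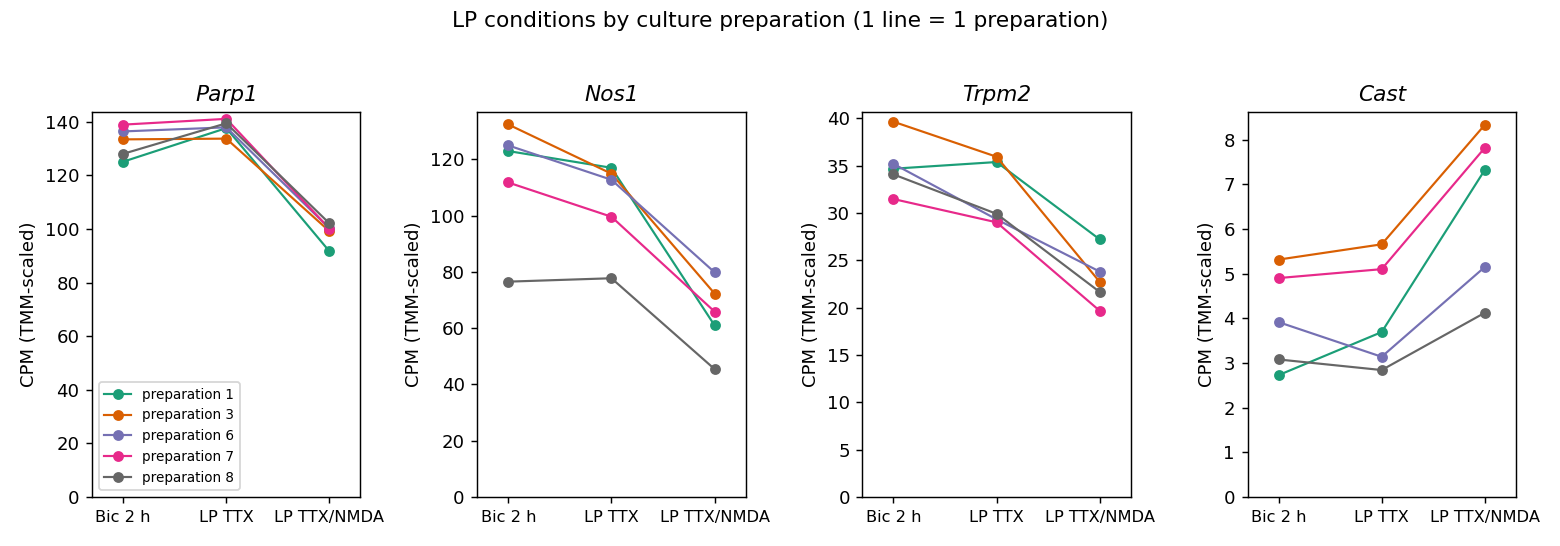
TMM-scaled CPM (y axis, from 0) of Parp1, Nos1, Trpm2 and Cast in the libraries of 2 h Bic, LP TTX and LP TTX/NMDA (x axis), with 1 line per culture preparation. From LP TTX to LP TTX/NMDA all 5 lines fall for Parp1, Nos1 and Trpm2 and all 5 rise for Cast.

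Against 2 h of Bic alone (the total effect of LP), TTX/NMDA changed 6 of the 10 genes, beside 22.8% of 32243 genes tested and 44.8% of those with at least 1 CPM. Nos1 fell by 43.7% (log2 fold change -0.83, SE 0.13, edgeR adjusted p = 3.8e-05), Trpm2 by 34.8% (-0.62, SE 0.089) and Parp1 by 26.2% (-0.44, SE 0.063). Cast rose by 62.5% (0.70, SE 0.18, adjusted p = 0.0055). These 2 comparisons share the TTX/NMDA libraries. Trpm7 and Capn1 were called here and not against TTX alone, and the difference between the comparisons was not tested.

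Trpm7 was at 33.9, 32.8, 33.6, 34.6 and 29.3 CPM after 2 h of Bic and at 39.1, 46.5, 38.8, 38.8 and 42.02 CPM with LP TTX/NMDA, without overlap (log2 fold change 0.31, SE 0.078, edgeR adjusted p = 0.0044). Capn1 was at 9.24, 14.1, 11.9, 9.51 and 10.3 CPM after Bic and at 8.745, 9.02, 10.9, 8.35 and 7.25 CPM with TTX/NMDA. These groups overlapped, and all 5 preparations fell (-0.35, SE 0.12, adjusted p = 0.035). The call on Capn1 was lost whichever preparation was left out, and the log2 fold change was smallest without preparation 3 (-0.24, adjusted p = 0.23). Dapk1 was at -0.18 (adjusted p = 0.061) and was called with the low-count filter (-0.16, adjusted p = 0.038), by DESeq2 (-0.19, adjusted p = 0.011) and with the preparation as a block (-0.15, adjusted p = 0.014, where 56.8% of 15947 genes were called). Trpm4 (-0.089), Capn2 (0.018) and Aifm1 (0.044) were not called in the unpaired test.

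TTX alone against 2 h of Bic (the passive effect of LP) changed 0 of the 10 genes in the unpaired edgeR test, beside 4.1% of 31944 genes tested. At an unadjusted p under 0.05 there was 1, Trpm7, which DESeq2 also called. Trpm7 was higher with TTX in 5 of 5 preparations (38.04 ± 3.19 against 32.8 ± 2.09 CPM, log2 fold change 0.21, SE 0.074, adjusted p = 0.14). With the preparation as a block, 5 of the 10 genes were called, beside 32.1% of 15570. Trpm7 was higher (0.20, adjusted p = 0.0054), and Dapk1 (-0.14, adjusted p = 0.011), Nos1 (-0.13, adjusted p = 0.020), Trpm2 (-0.16, adjusted p = 0.022) and Capn1 (-0.21, adjusted p = 0.033) were lower. Without the low-count filter, the block fit kept the calls on Trpm7 and Dapk1. It lost those on Nos1 (adjusted p = 0.058), Trpm2 (0.064) and Capn1 (0.057). The other 5 genes were between -0.10 (Trpm4) and 0.065 (Cast) in the unpaired test.

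In the short protocol, NMDA with TTX lowered Nos1 (the active effect of SP), 1 of the 10 genes. The share called was 4% of 32229 genes tested and 8.81% of those with at least 1 CPM. Nos1 was at 111, 98.7, 106, 98.4 and 81.4 CPM with SP TTX and at 79.7, 89.2, 91.3, 75.8 and 64.0 CPM with SP TTX/NMDA. It fell in 5 of 5 preparations, with overlapping groups (log2 fold change -0.32, SE 0.090, edgeR adjusted p = 0.048). That call was lost with the low-count filter (adjusted p = 0.074), with DESeq2's size factors in edgeR (0.052) with all 45 libraries in the fit (0.33) and without preparation 1, 3, 6 or 7 (-0.26 to -0.37, adjusted p 0.066 to 0.28). It was kept with the preparation as a block (-0.31, adjusted p = 0.0053, where 16.5% of 15705 genes were called). The other 9 genes were not called, with log2 fold changes of -0.16 for Parp1, -0.15 for Capn1, -0.14 for Dapk1, -0.11 for Trpm2, -0.097 for Trpm4, -0.012 for Capn2, 0.069 for Trpm7, 0.095 for Aifm1 and 0.13 for Cast.

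Against 1 h of Bic (the total effect of SP), Nos1 was lower as well (80.03 ± 11.0 against 104 ± 18.6 CPM, log2 fold change -0.39, SE 0.10, edgeR adjusted p = 0.031). This was 1 of 10 genes, beside 3.93% of 31414 and 8.51% of those with at least 1 CPM. The call was lost with the low-count filter (adjusted p = 0.060), with all 45 libraries (0.16) and without preparation 1, 3, 6 or 7 (-0.33 to -0.42, adjusted p 0.084 to 0.24). With the preparation as a block, 6 of the 10 genes were called, beside 27.6% of 15435. Nos1 (-0.39, adjusted p = 1.8e-04), Parp1 (-0.17, adjusted p = 0.0071), Trpm2 (-0.21, adjusted p = 0.0083) and Dapk1 (-0.12, adjusted p = 0.0497) were lower, and Aifm1 (0.16, adjusted p = 0.033) and Cast (0.31, adjusted p = 0.049) were higher. Each of these 6 had moved in the same direction in 5 of 5 preparations. Without the low-count filter, the block fit did not call Dapk1 (adjusted p = 0.14), Aifm1 (0.064) or Cast (0.054). With the filter, 4 of 7 astrocyte markers were higher and 1 was lower, and 3 of 3 fibroblast markers were higher. Their part in the rise of Cast was not tested. Parp1 was also called without the block by DESeq2 (-0.17, adjusted p = 0.0086) and with the low-count filter (-0.17, adjusted p = 0.040). The other 4 genes, Trpm4, Trpm7, Capn1 and Capn2, were between -0.14 (Capn1) and 0.072 (Trpm7) in the unpaired test. TTX alone against 1 h of Bic changed 0 of the 10 genes in edgeR (0 at an unadjusted p under 0.05 and 0 in DESeq2), beside 0.167% of 31765, with all 10 log2 fold changes between -0.11 (Trpm2 at the lower end) and 0.11 (Cast at the upper end).

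The difference between the active effects of LP and SP was tested as an interaction over the 20 libraries. It was called for Parp1 (LP minus SP -0.32, SE 0.087, edgeR adjusted p = 0.044, in 5 of 5 preparations), beside 2.59% of 35027 genes tested and 6.07% of those with at least 1 CPM. Parp1 had a log2 fold change of -0.49 in LP and of -0.16 in SP. For Nos1 (-0.37, adjusted p = 0.30), Trpm2 (-0.35, adjusted p = 0.27) and Cast (0.53, adjusted p = 0.44) the interaction was not called, although it had 1 sign in 5 of 5 preparations. With the preparation as a block all 4 were called, beside 25.4% of 16663 genes: Parp1 (-0.33, adjusted p = 0.0012), Cast (0.60, adjusted p = 0.0025), Nos1 (-0.38, adjusted p = 0.0043) and Trpm2 (-0.39, adjusted p = 0.011). The call on Parp1 in the unpaired test was lost without preparation 1, 3, 7 or 8 (-0.29 to -0.32, adjusted p 0.10 to 0.19). For the other 6 genes the unpaired difference was between -0.027 (Aifm1) and 0.12 (Trpm4), and it was not called. SP and LP differ in the time of Bic and in the time of NMDA, and these cannot be told apart.

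**Figure D3:**
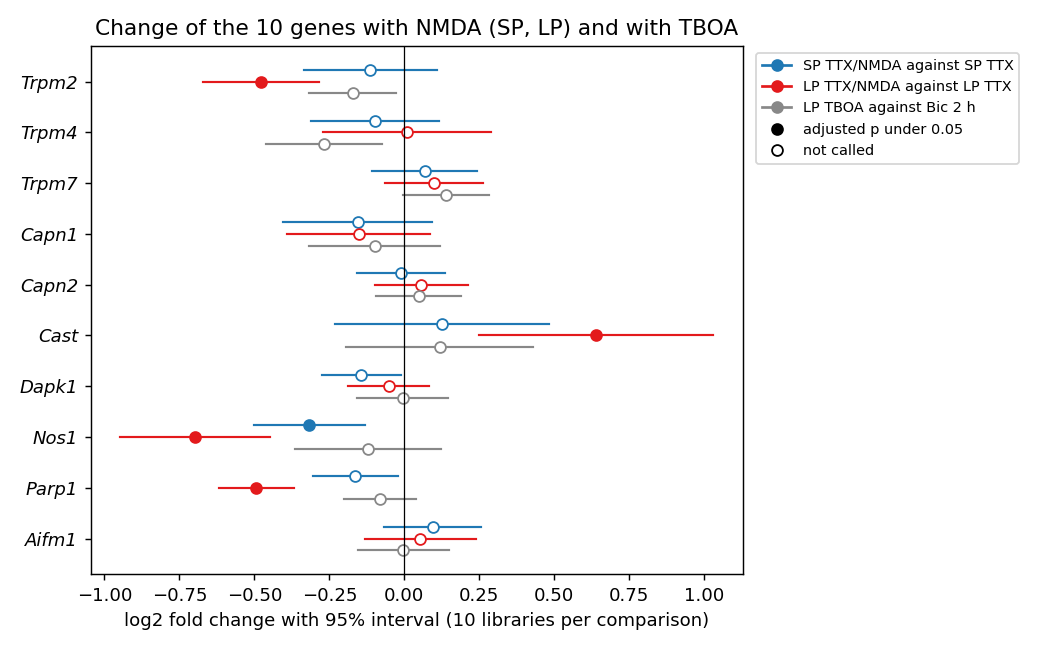
Log2 fold change (x axis) with its 95% interval for each of the 10 genes (y axis), for SP TTX/NMDA against SP TTX (blue), LP TTX/NMDA against LP TTX (red) and LP TBOA against 2 h of Bic (grey), with filled points for an adjusted p under 0.05. The red points of Nos1, Parp1, Trpm2 and Cast lie farthest from 0, and no grey point is filled.

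Glutamate spillover with TBOA changed 0 of the 10 genes against 2 h of Bic by edgeR (0 in DESeq2, 2 at an unadjusted p under 0.05), beside 0.517% of 31706 genes tested. The 4 genes called in the active effect of LP, which is against TTX, had small differences between TBOA and 2 h of Bic. Log2 fold changes were -0.12 for Nos1 (95% interval -0.36 to 0.12), -0.081 for Parp1 (-0.20 to 0.039), -0.17 for Trpm2 (-0.32 to -0.027) and 0.12 for Cast (-0.19 to 0.43). The difference between TBOA and TTX/NMDA was not tested. Trpm7 (0.14), Capn1 (-0.098), Capn2 (0.048), Dapk1 (-0.0058) and Aifm1 (-0.0031) were not called either. Trpm4 had the largest difference. It was at 9.46, 8.80, 8.16, 9.25 and 7.88 CPM after Bic and at 7.36, 6.57, 6.15, 7.63 and 7.61 CPM with TBOA, lower in each preparation and without overlap (-0.27, SE 0.094, adjusted p = 0.37). With the preparation as a block it was not called either (-0.29, adjusted p = 0.079), and 2.76% of 15628 genes were.

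AP firing alone changed 0 of the 10 genes after 0.5, 1 and 2 h of Bic by edgeR, and DESeq2 called 0 as well. At an unadjusted p under 0.05 there were 0, 0 and 3. Beside this, 0.265% of 30133, 1.09% of 30765 and 8.71% of 30929 genes tested were called. Over all 5 preparations, Nos1 had the largest log2 fold changes, with 0.17, 0.25 and 0.36 at these times (SE 0.12, 0.13 and 0.14). It was at 100.5, 60.8, 112, 94.5 and 71.1 CPM in the control and at 123, 132, 125, 112 and 76.5 CPM after 2 h, higher in 5 of 5 preparations and with overlap (adjusted p = 0.14). The 2 h value rested in part on preparation 3, without which it was 0.19 (adjusted p = 0.52) and below that of Cast (0.27), and without preparation 8 it was called (0.42, adjusted p = 0.049). In the unpaired test at 2 h, Cast was at 0.30, Trpm2 at 0.22, Parp1 at 0.15, Trpm4 at 0.14, Capn1 at 0.096, Capn2 at 0.057, Dapk1 at -0.019, Aifm1 at -0.077 and Trpm7 at -0.20. At 0.5 and 1 h the 9 genes other than Nos1 were between -0.096 (Aifm1 at 1 h) and 0.15 (Cast at 1 h). With the preparation as a block, 4 genes were called after 2 h, beside 29.5% of 15269: Nos1 (0.37, adjusted p = 0.028), Trpm2 (0.23, adjusted p = 0.027), Cast (0.36, adjusted p = 0.034) and Parp1 (0.16, adjusted p = 0.043) were higher. Nos1, Trpm2 and Parp1 were thus higher with AP firing in this fit and lower with LP TTX/NMDA, and Cast was higher in both. Without the low-count filter, the block fit did not call Parp1 after 2 h (0.16, adjusted p = 0.099). Of Npy and Sst, 1 of 2 was called higher after 2 h in the unpaired test and 2 of 2 with the block. In the passive effect of LP, 1 of 2 was lower with the block. The relation of these markers to Nos1 was not tested.

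Related genes were read from lists of 41 other genes. In the active effect of LP, 8 of the 41 rose, 9 fell and 24 were not called. The 41.5% called stand beside 23.5% of all genes tested and 46.8% of genes with at least 1 CPM, which 29 of the 41 reached. The median log2 fold change was 0.092 over the list, 0.11 over all genes tested and -0.010 over genes with at least 1 CPM. With NMDA in SP 0 rose and 5 fell (12.2% called, beside 4% of all genes tested and 8.81% of those with at least 1 CPM). With TBOA 0 were called by edgeR (5 at an unadjusted p under 0.05, 0 with the preparation as a block), beside 0.517% of all genes. After 2 h of Bic 0 rose and 2 fell (4.88% called, beside 8.71% of all genes and 17.8% of those with at least 1 CPM). With the preparation as a block 5 of 31 rose and 4 fell, beside 29.5% of all genes.

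Among 5 other Trpm genes, Trpm3, a Ca2+-permeable channel opened by heat and by steroids, was the single gene above 1 CPM, and it had the steepest fall of the 41, from 23.1 to 9.49 CPM (log2 fold change -1.29, SE 0.12, edgeR adjusted p = 5.3e-08). It also fell in SP (-0.80, adjusted p = 5.9e-05). The other 4 had at most 31 counts in any library.

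Among 13 other calpain genes, Capn5 fell (124.6 to 74.8 CPM, -0.74, SE 0.076, adjusted p = 1.9e-07) and Capn7 fell (-0.20, adjusted p = 0.038), while Capn6, a calpain without the catalytic cysteine, rose from 0.71 to 1.30 CPM (0.90, adjusted p = 0.0012). Capns1, the small subunit that Capn1 and Capn2 share, was at 0.098 (adjusted p = 0.39). Of genes whose proteins calpains cut, Sptan1 (spectrin alpha) fell from 2296 to 1492 CPM (-0.63, adjusted p = 3.4e-10) and Cdk5r1 (p35, the activator of Cdk5) fell (-0.30, adjusted p = 5.2e-04). Sarm1, an enzyme that destroys NAD, fell as well (-0.39, adjusted p = 9.1e-05), and all 3 also fell in SP.

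Beside Nos1, its adaptor Nos1ap fell (-0.63, SE 0.092, adjusted p = 2.0e-05) and so did Dlg4, which codes for PSD-95 (-0.30, adjusted p = 3.8e-04), whereas Dynll1, a small protein that binds Nos1, was not called (-0.026). Nos2 and Nos3, the other nitric oxide synthases, were at 0.0315 and 0.801 CPM on average and were not called.

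Beside Parp1, the relatives Parp2 (0.31, adjusted p = 0.037) and Parp3 (0.64, adjusted p = 0.0099) rose, the opposite direction to Parp1. Adprhl2, an enzyme that removes ADP-ribose, rose (0.28, adjusted p = 0.018), and Rnf146, a ubiquitin ligase that recognises poly(ADP-ribose), fell (-0.40, adjusted p = 1.1e-04). Parg, the main enzyme that degrades the polymer, was at -0.16 (adjusted p = 0.12). Parp2 was at 12.5 CPM with TTX and 15.6 CPM with TTX/NMDA, and Parp3 at 5.65 and 8.98 CPM.

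Of 6 genes of the AIF family and partners, Aifm2 rose (0.41, SE 0.12, adjusted p = 0.013). Endog, a mitochondrial nuclease, was at 0.27 (adjusted p = 0.17), and Aifm3 at 0.25 (adjusted p = 0.26). All 3 other death-associated kinases rose: Dapk2 (0.76, adjusted p = 0.016, from 0.465 to 0.769 CPM), Stk17b (0.45, adjusted p = 0.038) and Dapk3 (0.23, adjusted p = 0.035). Dapk1 itself was not called. With the preparation as a block, 15 of 33 related genes that passed the low-count filter rose and 10 fell, and all 6 genes of the AIF list were among those that rose, in a fit that called 62.4% of all genes.

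**Figure D4:**
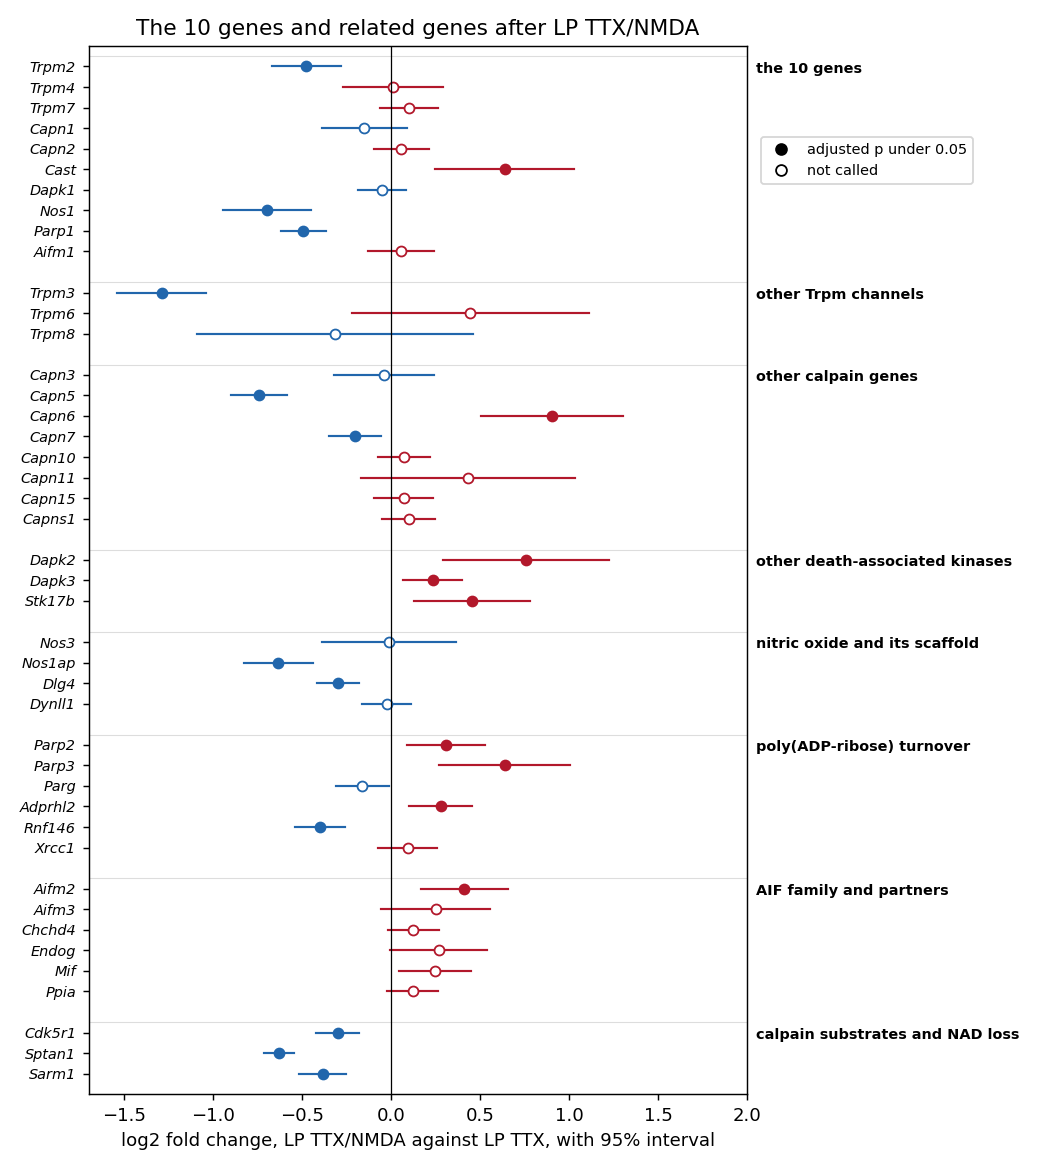
Log2 fold change with its 95% interval (x axis) for LP TTX/NMDA against LP TTX, for the 10 genes and the 33 related genes that passed the low-count filter (y axis, grouped by list), in red above 0 and blue below 0, with filled points for an adjusted p under 0.05. Trpm3 lies farthest to the left, and Parp2 and Parp3 lie on the other side of 0 from Parp1.

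The condition means of Trpm2, Nos1 and Parp1 followed each other closely over the 9 conditions, with Pearson's r of 0.967 between Trpm2 and Nos1, 0.952 between Nos1 and Parp1 and 0.925 between Trpm2 and Parp1 (log2 CPM). Cast ran the other way, with r of -0.761 to Trpm2, -0.651 to Nos1 and -0.634 to Parp1, and Capn1 and Dapk1 followed each other with r = 0.940. Such correlations rest on 9 means that share their libraries' scaling and are descriptions only. Among 13583 other genes with at least 1 CPM, those most like Nos1 were Phf24 (0.997), Ankrd52 (0.996) and the sodium channel gene Scn8a (0.996). Those most like Trpm2 were Bbs1 (0.994), Map6 (0.993) and Chd3 (0.993), and those most like Parp1 were Slc24a4 (0.993), Gm1043 (0.989) and Zmynd11 (0.987). Cast was most like Tm4sf1 (0.993), Tmem255a (0.987) and Sash1 (0.986), Capn1 like Plekha6 (0.984) and Amz1 (0.983), and Dapk1 most like Abl1 (0.987), Osbpl5 (0.983) and Dcaf8 (0.980). For the other 4 genes, the companions were Tcte2 (0.842), P3h2 (0.795) and 5830417I10Rik (0.764) for Trpm4, Gm49359 (0.962), Pggt1b (0.958) and Riok2 (0.957) for Trpm7, Arsg (0.970), Piezo1 (0.961) and Gm20518 (0.957) for Capn2, and Lbhd1 (0.979) and Slc2a4rg-ps (0.926) for Aifm1.

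The culture preparations differed from each other about as much as the conditions for some genes. Averaged over the 9 conditions, Cast was at 2.85 CPM in preparation 8 and at 5.51 CPM in preparation 3, a 1.93-fold range beside 2.07-fold across conditions. Nos1 was at 72.2 CPM in preparation 8 and at 105 CPM in preparation 1, a 1.45-fold range beside 1.75-fold. Trpm4 ranged 1.32-fold over preparations and 1.23-fold over conditions, and Capn1 1.31-fold and 1.27-fold. Parp1 had the narrowest range over preparations, 1.08-fold beside 1.40-fold over conditions.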

How the data were processed

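RNA was measured by strand-specific sequencing of poly-A RNA in 45 libraries. Per the labels and the methods, the authors aligned single-end reads with STAR (version 2.5.4b) to GRCm38 with Ensembl annotation and deposited raw counts per gene from featureCounts (version 1.6.5), sense strand, unique reads within a single gene. Gene names and exon lengths came from GENCODE M21 (54495 of 54532 IDs named). Members and lists were chosen with earlier results of these data known. Each pair of conditions was tested on its own 10 libraries, as the authors did with DESeq2, with edgeR (version 4.0.16) quasi-likelihood tests, TMM, genes with at least 1 read and Benjamini-Hochberg adjustment. The current edgeR fit was chosen over the legacy fit after both were checked on simulated counts of the active effect of LP. There the share of false calls was above the nominal threshold in both fits, lower in the current fit than in the legacy fit, and lower again with the low-count filter. Levels are TMM-scaled CPM, and intervals cover the spread between libraries. Replicate numbers come from the sample titles, and the paper counts each culture preparation as 1 replicate. Equal numbers were therefore taken as 1 preparation, which pairs the libraries. Same-numbered libraries deviated together from their condition means on average (mean correlation 0.434). Not every pair did, with a lowest value of 0.012 in the active effect of SP and of -0.195 with TBOA. The paired fit adds the preparation as a block after filterByExpr. Alternatives were DESeq2, RLE factors, filterByExpr, the block, all 45 libraries and each preparation left out. All 10 members are described in every comparison, by value or by range. List genes are named where called with a log2 fold change of at least 0.5 in the active effect of LP, otherwise up to 3 per list, and Capns1, Capn7, Dynll1, Nos2, Nos3 and Parg were added for their roles after their values were seen. Of the 3 genes most alike to each member, those reported here are named, and 2 are not reported here.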

Additional observations from a re-analysis of the deposited data

Results flagged for a closer look

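Of 90 groups of 5 libraries (10 genes in 9 conditions), 3 had a library set apart from the other 4 by more than the 95% limit of Dixon's test, fewer than the 1 in 20 that chance gives. Nos1 after 1 h of Bic was at 72.4 CPM in preparation 8, where the next library was at 108 CPM. Parp1 with LP TTX/NMDA was at 91.6 CPM in preparation 1, next to 99.1 CPM. Aifm1 with LP TTX/NMDA was at 23.7 CPM in preparation 8, next to 29.6 CPM.

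The active effect on Parp1 differed between the long and the short protocol, with an interaction of -0.32 on the log2 scale (edgeR adjusted p = 0.044), negative in 5 of 5 preparations.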

How the results depend on the processing

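Of 32 values of the 10 genes that passed the test with or without the replicate block, 384 alternatives were computed. The unpaired test was the reference. In 323 the direction and the side of the threshold were as in that test, in 23 the call was lost, in 38 it was gained, and none changed direction. Values that passed only with the block count as unchanged wherever they were not called. Only values called in the unpaired test could lose a call, so 23 is not a share of all 384. The gains include the block fit by which some values were chosen. The numbers of the 10 genes called moved as follows. With the replicate block and the low-count filter, the genes called higher were 4 after 2 h of Bic (0 as reported), 2 in the total effect of SP (0), 1 in the passive effect of LP (0), 2 in the active effect of LP (1) and 1 in LP minus SP (0), and those called lower were 4 in the total effect of SP (1), 4 in the passive effect of LP (0) and 3 in LP minus SP (1). With the replicate block over all genes, 3, 1 and 1 were higher after 2 h of Bic, in the passive effect of LP and in LP minus SP, and 3, 1 and 3 were lower in the total effect of SP, the passive effect of LP and LP minus SP. The block changed no other count of calls by over 1.5 times. DESeq2 called 2 lower in the total effect of SP and 1 higher in the passive effect of LP. In the active effect of SP, 0 were lower with RLE factors, with filterByExpr and with all 45 libraries, and 0 in the total effect of SP with all 45 libraries. Leaving out each preparation gave 0 to 1 higher after 2 h of Bic, 0 to 1 lower in the active and in the total effect of SP, 0 to 1 higher in the active effect of LP and 0 to 1 lower in LP minus SP. The legacy edgeR fit, added after the test on simulated counts, moved none of these. The cause of these changes was not tested.

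The number of all genes called rose with the block from 336 to 633 after 1 h and from 2695 to 4499 after 2 h of Bic, from 1289 to 2586 in the active, from 1233 to 4260 in the total effect of SP, from 1311 to 4997 in the passive effect of LP, from 164 to 432 with TBOA and from 907 to 4231 in LP minus SP (53 to 109 in the passive effect of SP, over all genes). DESeq2 called 82, 1900, 2320, 315 and 1660 genes in the passive and total effects of SP, the passive effect of LP, with TBOA and in LP minus SP, and the legacy fit 85 in the first of these. Without 1 preparation, the lowest counts were 26, 666, 612, 545, 34 and 441 in the passive, active and total effects of SP, the passive effect of LP, with TBOA and in LP minus SP. Without TMM factors, Parp1 was at 131.6 and 105.7 CPM in LP TTX and LP TTX/NMDA, and Capn2 and Dapk1 were at 86.5 and 87.2 CPM in LP TTX/NMDA. Depth limits Cast most, with 28 counts in its lowest library.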
